A study of Caenorhabditis elegans with 6 samples.

Results

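The 9 genes described here encode components of the germ granules of Caenorhabditis elegans or regulators of germline mRNA translation: pgl-1, pgl-3, glh-1, glh-2, deps-1, gld-1, nos-2, fbf-1 and fbf-2. They were chosen by gene symbol in the platform annotation, with earlier results of these data known, and are 9 of the 17118 genes named there. Counts of these genes beside shares of all probe sets are therefore descriptive. Together they had 12 probe sets that name a single gene, and each gene is represented by its brightest one, by the mean of the 6 arrays. A further 2 probe sets that name nos-2 or the fbf genes together with another gene were left out. The RNA came from whole L1 larvae, the first stage after hatching, that had not been fed, and was hybridised to Affymetrix arrays, with 2 arrays in each of 3 groups that the series design describes as biological replicates. The first group was elo-5(gk208) mutants whose mothers were given the fatty acid C13ISO, which the labels call C17ISO deficient. The second was elo-5(gk208) mutants whose mothers were given C17ISO, and the third was the wild-type strain N2 with C13ISO. All 3 groups had been kept for the preceding generation on OP50 bacteria with 1 mM C17ISO in DMSO, and the mothers then received their supplement at 1 mM and 20 °C. Their eggs were released by bleaching, and the larvae were collected after 24 h on plates without food. N2 given C17ISO was not analysed here, so the elo-5 C17ISO and N2 larvae differ in both genotype and supplement.

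ELO-5 is a fatty acid elongase that makes monomethyl branched-chain fatty acids such as C17ISO, and C13ISO has the same kind of branched end on a shorter chain. Germ granules, called P granules in this animal, are membraneless bodies of RNA and protein that are passed to the germ cells from the egg and that sit at the nuclear pores of germ cells. The PGL proteins are their scaffold, the GLH proteins are helicases related to Vasa, and DEPS-1 is a granule component needed for normal granule assembly and RNA interference. A newly hatched L1 larva has a small gonad primordium in which a pair of primordial germ cells waits for food before dividing. In the growing germline, the FBF proteins and GLD-1 bind mRNAs and repress their translation, FBF to keep stem cells and GLD-1 to drive meiotic entry and oocyte development, and NOS-2 is a Nanos protein of the primordial germ cells. In whole larvae, a difference in the number of germ cells and a difference in RNA per germ cell cannot be told apart.

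Values are the deposited model-based intensities, which are linear and have no absolute unit, with array medians of 107 to 134. Comparisons used log2(value + 16), and every fold change is on that scale, so changes of dim probe sets come out smaller than they are. A probe set was tested if its mean log2 value was above the 30th percentile (5.52), which held for 15783 of 22548 probe sets, and was called if its adjusted p in the limma fit was below 0.05. Of the 9 genes, 8 passed, with fbf-2 just above the limit at 5.67 and fbf-1 just below it at 5.46. The limit applies to the mean of all 6 arrays. Both deps-1 and fbf-2 passed only through their elo-5 C13ISO arrays, since all their other arrays were below it. For fbf-1 the values of a fit with no filter are given. The targeted gene elo-5 read 217 and 144 in the elo-5 C13ISO larvae, 146 and 178 in the elo-5 C17ISO larvae, and 1170 and 1608 in N2. Both mutant groups were thus below N2, 7.18-fold and 7.82-fold, though where the probes lie relative to the deletion was not analysed here. Rank correlations between arrays were 0.984 to 0.989 within a group, 0.981 to 0.982 between elo-5 C17ISO and N2, and 0.926 to 0.943 between elo-5 C13ISO and the other groups.

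The first comparison asked what the supplement changed in elo-5 mutant larvae, with C13ISO or C17ISO at the same dose and time. Most of the 9 genes were higher in the C17ISO-deficient larvae. The translational repressor gld-1 was 8.98-fold higher, deps-1 5.55-fold, nos-2 4.67-fold and fbf-2 4.21-fold, and the helicase genes glh-1 and glh-2 and the scaffold gene pgl-1 were higher by smaller factors of 1.67 to 2.36. The scaffold gene pgl-3 was the exception, with no difference that passed the test. Of the 8 genes tested, 7 were called higher and 0 lower, where 25.7% of all tested probe sets were called higher and 18.8% lower. These 7 include deps-1 and fbf-2, which passed the filter only through the group where they were high. With no filter 8 of the 9 genes were called higher and 0 lower, beside 18.6% of all 22548 probe sets called higher. Both arrays of elo-5 C13ISO were above both arrays of elo-5 C17ISO for 8 of the 9 genes, a count that includes the untested fbf-1, against 40.1% of all tested probe sets. The median difference over the 9 genes was 1.24 on the log2 scale (2.36-fold), beside a median of 0.07 over all tested probe sets and 0.05 over all probe sets. With 4062 probe sets called higher and 2964 lower, 57.8% of all calls were higher, and this share was 36.2% when array medians were aligned, which moved the median of all tested probe sets to -0.16. Under that alignment the log2 differences of gld-1, deps-1, nos-2 and fbf-2 were 2.94, 2.24, 1.99 and 1.85.

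**Figure D1:**
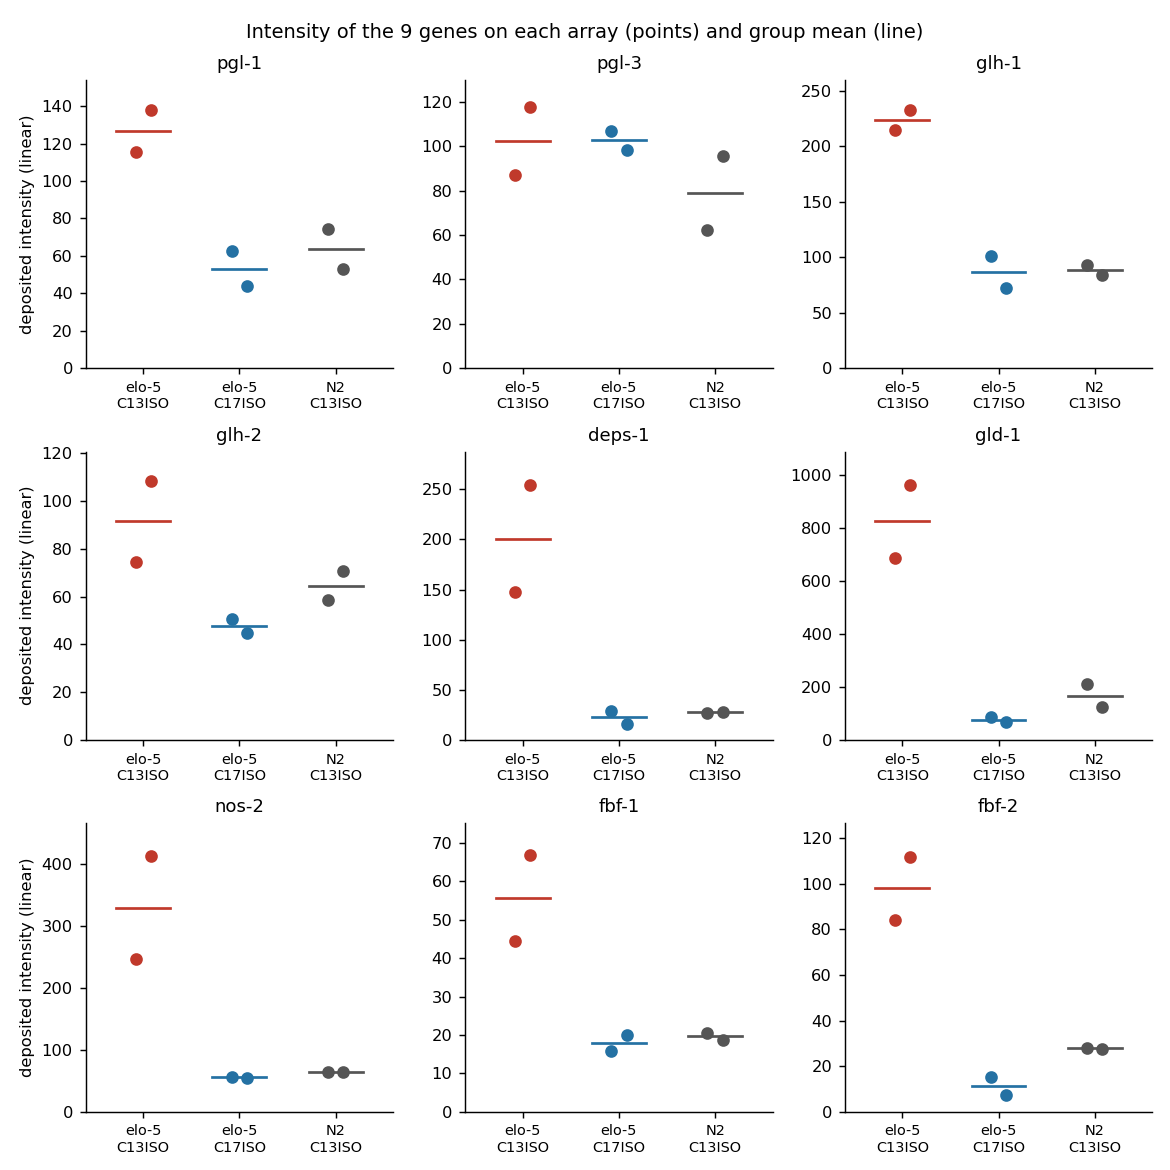
Deposited intensity of the brightest probe set of each of the 9 genes on each of the 6 arrays, by group, with a bar at the group mean of 2 arrays. The elo-5 C13ISO points lie above those of both other groups for every gene but pgl-3, and for gld-1 they are at 685 and 962 against 86.3 and 67.0 in elo-5 C17ISO and 210 and 124 in N2.

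The second comparison set the same elo-5 C13ISO arrays against N2 on the same supplement, and so it shares those arrays with the first. The same kinds of gene were higher in the mutant larvae. The differences were 4.85-fold for deps-1, 4.66-fold for gld-1, 4.21-fold for nos-2, 2.58-fold for fbf-2, 2.30-fold for glh-1 and 1.81-fold for pgl-1. Of the 8 genes tested, 6 were called higher and 0 lower, where 23.2% of all tested probe sets were called higher and 20.4% lower, and glh-2 and pgl-3 were not called. These 6 again include deps-1 and fbf-2. With no filter 7 of the 9 genes were called higher and 0 lower, beside 16.7% of all probe sets called higher. Both elo-5 C13ISO arrays were above both N2 arrays for 8 of the 9 genes, again counting the untested fbf-1, against 37.8% of all tested probe sets. The median difference over the 9 genes was 1.20 (2.30-fold), with a range from 0.33 for pgl-3 to 2.28 for deps-1. The median was 0.02 over all tested probe sets and also over all probe sets.

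**Figure D2:**
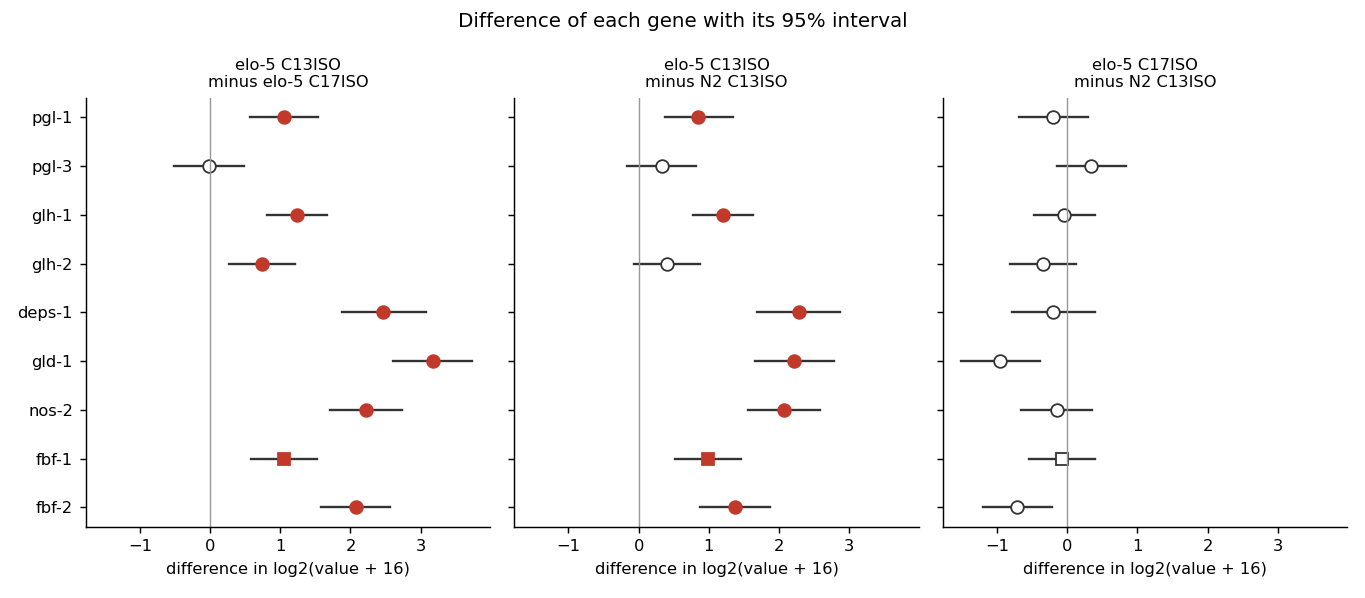
Log2 difference of each gene in the 3 comparisons, with its 95% interval from the limma fit; filled red points were called, open points were not, and the square is fbf-1 from the fit with no filter. In both comparisons of elo-5 C13ISO the points of gld-1, deps-1, nos-2 and fbf-2 lie at 1.37 or above, and no gene is called between elo-5 C17ISO and N2.

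The scaffold genes pgl-1 and pgl-3, which lie on different chromosomes, behaved differently. The intensity of pgl-1 was 116 and 138 in the elo-5 C13ISO larvae, 62.5 and 43.8 in the elo-5 C17ISO larvae, and 74.4 and 52.7 in N2. Both elo-5 C13ISO arrays lay above all 4 others, which overlapped each other. The means were 127 ± 15.8, 53.2 ± 13.2 and 63.6 ± 15.4 (SD, n = 2 each). pgl-1 was higher in the deficient larvae by 1.05 (SE 0.22, adjusted p = 0.00304) on the log2 scale against the elo-5 C17ISO larvae and by 0.85 (SE 0.22, adjusted p = 0.00988) against N2. The call against N2 rested on 2 single arrays: it was lost without replicate 2 of elo-5 C13ISO (0.74, adjusted p = 0.0539) and without replicate 2 of N2 (0.65, adjusted p = 0.102).

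Its paralog pgl-3 read 87.0 and 118 in the elo-5 C13ISO larvae, 107 and 98.5 in the elo-5 C17ISO larvae, and 62.4 and 95.9 in N2. The arrays of elo-5 C13ISO spanned those of elo-5 C17ISO and overlapped those of N2. Its difference between the supplements was -0.02 with an interval of -0.51 to 0.48 (adjusted p = 0.961), so a rise of the size of pgl-1's lay outside the interval. Against N2 it was 0.33 with an interval of -0.17 to 0.82 (adjusted p = 0.268). The log2 ratio of pgl-1 to pgl-3 within an array was 0.20 and 0.35 in elo-5 C13ISO and -0.94 and -0.65 in elo-5 C17ISO. This change in ratio of 1.07 did not overlap between the groups, although with 2 arrays against 2 an exact permutation test cannot go below p = 0.333. Against N2 the ratio changed by 0.53 and the arrays overlapped.

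The Vasa-related helicase genes glh-1 and glh-2 lie on the same chromosome with 85 protein-coding genes between them in the annotation. The intensity of glh-1 was 215 and 233 in the elo-5 C13ISO larvae, 101 and 72.0 in the elo-5 C17ISO larvae, and 92.7 and 84.1 in N2. The deficient larvae stood apart from a single low range shared by the other 4 arrays. The difference was 1.24 (SE 0.19, adjusted p = 0.000506) against elo-5 C17ISO and 1.20 (SE 0.19, adjusted p = 0.000586) against N2. A second, dimmer glh-1 probe set read 92.3 and 103 in the elo-5 C13ISO larvae, 57 and 65.9 in the elo-5 C17ISO larvae and 52.8 and 45.1 in N2. It was called higher in both comparisons too, by 0.55 (adjusted p = 0.0332) and 0.81 (adjusted p = 0.00534).

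For glh-2 the intensities were 74.4 and 109 in the elo-5 C13ISO larvae, 50.7 and 44.8 in the elo-5 C17ISO larvae, and 58.6 and 70.6 in N2. Its arrays formed an order without overlap, with elo-5 C13ISO highest, N2 in the middle and elo-5 C17ISO lowest, but the gaps between neighbouring groups were small beside the spread of the highest group. The difference between the supplements was 0.74 (SE 0.21, adjusted p = 0.0167), and that against N2, 0.40 with an interval of -0.07 to 0.87, did not pass the test (adjusted p = 0.154). The glh-2 call between the supplements was lost under quantile normalization (0.54, adjusted p = 0.0687), with aligned medians (0.51, adjusted p = 0.0777), and without replicate 2 of elo-5 C13ISO (0.51, adjusted p = 0.0984) or either elo-5 C17ISO array (0.81, adjusted p = 0.05, at the threshold, and 0.67, adjusted p = 0.0932). Without replicate 1 of elo-5 C13ISO the difference against N2 was called, at 0.63 (adjusted p = 0.0426). The within-array log2 ratio of glh-1 to glh-2 changed by 0.50 between the supplements and by 0.80 against N2, without overlap in either case. With the dimmer glh-1 probe set, tried after seeing the data, the change was -0.18 with overlap between the supplements and 0.41 without overlap against N2, so the direction between the supplements rested on the probe set.

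Among the granule genes, deps-1 differed most. Its intensity was 147 and 254 in the elo-5 C13ISO larvae, 28.9 and 15.9 in the elo-5 C17ISO larvae, and 26.8 and 28 in N2. The low groups lay close to the constant of 16 that is added before the logarithm, and the 2 arrays of the deficient larvae differed from each other by 0.73 on the log2 scale, the widest replicate gap of any of the 9 genes. Even so, the gap between groups was several times that between replicates. deps-1 was higher by 2.47 (SE 0.27, adjusted p = 4.67e-05) against elo-5 C17ISO, a difference that 1.12% of all tested probe sets reached, and by 2.28 (SE 0.27, adjusted p = 7.54e-05) against N2. The size depends on the added constant: with 1 in place of 16 the difference between the supplements was 3.11, and with 64 it was 1.59, and it was called with each.

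The gene with the largest difference between the supplements was gld-1, whose protein is a KH-domain repressor of translation. Its intensity was 685 and 962 in the elo-5 C13ISO larvae, 86.3 and 67.0 in the elo-5 C17ISO larvae, and 210 and 124 in N2. The 3 groups did not overlap, with N2 between the mutant groups and well nearer to the lower one. The means were 823 ± 196, 76.7 ± 13.7 and 167 ± 60.8 (SD, n = 2 each). The difference was 3.17 (SE 0.25, adjusted p = 6.18e-06) against elo-5 C17ISO, which ranked 51 among all tested probe sets, and 2.22 (SE 0.25, adjusted p = 6.39e-05) against N2.

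The second probe set that names gld-1 did not show this. It read 43.8 and 45.2 in the elo-5 C13ISO larvae, 46.6 and 26.5 in the elo-5 C17ISO larvae, and 36.9 and 40.3 in N2. The elo-5 C17ISO arrays spanned those of the deficient larvae, and the difference of 0.23, with an interval of -0.27 to 0.73, did not pass the test (adjusted p = 0.436); against N2 it was 0.15 (adjusted p = 0.625). Where in the gene each probe set binds was not analysed here. Averaging both probe sets gave gld-1 differences of 1.70 and 1.19, which were called.

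**Figure D3:**
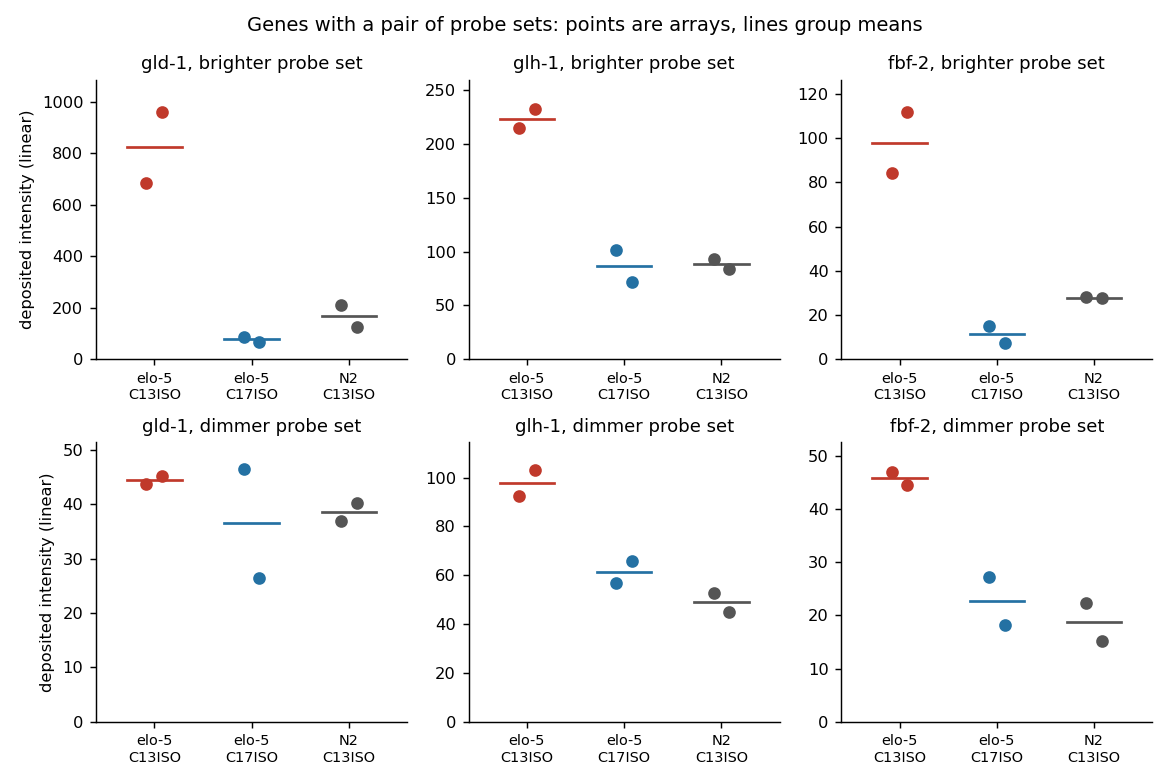
Intensity on the 6 arrays for the 3 genes with 2 probe sets of their own, glh-1, gld-1 and fbf-2, with the brighter and the dimmer probe set of each. Both probe sets of glh-1 and of fbf-2 are higher in elo-5 C13ISO, whereas the dimmer gld-1 probe set stays between 26.5 and 46.6 on all arrays.

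The Nanos gene nos-2 read 246 and 413 in the elo-5 C13ISO larvae, 56.8 and 54.8 in the elo-5 C17ISO larvae, and 63.6 and 63.7 in N2. The 4 arrays of the other groups lay within a narrow band, and both arrays of the deficient larvae were far above it while differing widely between themselves. The means were 329 ± 118, 55.8 ± 1.41 and 63.7 ± 0.0919 (SD, n = 2 each), and nos-2 was higher by 2.22 (SE 0.23, adjusted p = 3.64e-05) against elo-5 C17ISO and by 2.07 (SE 0.23, adjusted p = 5.49e-05) against N2.

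The Pumilio-family genes fbf-1 and fbf-2 encode closely related proteins and lie on the same chromosome with 1 protein-coding gene between them. Cross-hybridization between the pair was not tested. The intensity of fbf-2 was 84.2 and 112 in the elo-5 C13ISO larvae, 15.1 and 7.18 in the elo-5 C17ISO larvae, and 28.1 and 27.5 in N2. As for gld-1, the 3 groups did not overlap and elo-5 C17ISO was lowest. fbf-2 was higher by 2.08 (SE 0.22, adjusted p = 4.73e-05) against elo-5 C17ISO and by 1.37 (SE 0.22, adjusted p = 0.000683) against N2, and with an added constant of 1 or 64 the first difference was 3.09 or 1.11. A dimmer fbf-2 probe set, which did not pass the filter, read 47.0 and 44.4, 27.2 and 18.2, and 22.3 and 15.1 in the same order of groups. In the fit with no filter its differences were 0.68 (adjusted p = 0.0305) and 0.84 (adjusted p = 0.0127).

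For fbf-1 the intensities were 44.6 and 67.0 in the elo-5 C13ISO larvae, 15.9 and 20.1 in the elo-5 C17ISO larvae, and 20.6 and 18.7 in N2. The 4 arrays of the other groups overlapped and both deficient arrays were above them. In the fit with no filter, in which 31.4% of all probe sets were called between the supplements, the difference was 1.06 (SE 0.21, adjusted p = 0.00448). Against N2, where 30.5% were called, it was 0.99 (SE 0.21, adjusted p = 0.00633), a call that was lost without replicate 2 of N2 (0.95, adjusted p = 0.0554). With an added constant of 1 or 64 the difference between the supplements was 1.56 or 0.54. The within-array log2 ratio of fbf-2 to fbf-1 changed by 1.01 between the supplements, by 0.38 against N2 and by -0.63 between elo-5 C17ISO and N2, without overlap in any of them. With the dimmer fbf-2 probe set, tried after seeing the data, these changes were -0.38, -0.16 and 0.23, with overlap in each, so the direction of the ratio rested on the probe set.

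The third comparison set the elo-5 C17ISO larvae against N2. None of the 8 tested genes was called by limma (1.41% of all tested probe sets were). That share was 0.165% to 0.304% with 1 array of either group left out and 3.19% without either elo-5 C13ISO array, and none of the 8 genes was called in those fits. The largest differences of the 9 genes were those of gld-1 and fbf-2, both lower in elo-5 C17ISO. They were -0.95 for gld-1 with an interval of -1.51 to -0.38 (adjusted p = 0.112), and -0.71 for fbf-2 with an interval of -1.20 to -0.21 (adjusted p = 0.163). Their dimmer probe sets overlapped between the groups, at -0.08 (adjusted p = 0.913) for gld-1 and 0.16 (adjusted p = 0.818 with no filter) for fbf-2, and averaging the probe sets gave -0.51 and -0.28. The arrays did not overlap for 5 of the 9 genes: gld-1, fbf-2, glh-2 and nos-2 read lower in elo-5 C17ISO and pgl-3 higher. Of all tested probe sets, 30.4% read lower and 20.4% higher without overlap. The other 7 genes lay between -0.34 for glh-2 and 0.34 for pgl-3, and intervals such as -0.79 to 0.40 for deps-1 and -0.66 to 0.36 for nos-2 hold differences of either sign.

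The 2 arrays of the elo-5 C13ISO group differed from each other in a common direction. Replicate 2 was above replicate 1 for all 9 genes, with a median gap of 0.45 on the log2 scale, whereas 48.4% of all tested probe sets were higher on replicate 2, with a median gap of -0.01. In elo-5 C17ISO replicate 2 was the higher array for 1 of the 9 genes and 40% of all tested probe sets, and in N2 for 4 of the 9 genes and 36.4% of all. Without replicate 2 of elo-5 C13ISO 6 of the 8 genes were called higher between the supplements, beside 23.6% of all tested probe sets, and 5 against N2, beside 20% of all. Of 21 genes used as markers of oocytes and early embryos, 20 were higher on replicate 2 of elo-5 C13ISO, with a median gap of 0.51. In elo-5 C17ISO 3 of the 21 were higher on replicate 2, with median gaps of -0.24 for the markers and -0.30 for the 9 genes. In N2 4 of the 21 were, with a median gap of -0.32 beside -0.02 for the 9 genes.

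The same 21 markers were also higher in the deficient larvae. Against elo-5 C17ISO 17 were called higher and 0 lower, with a median difference of 2.14, and against N2 18 were called higher and 0 lower, with a median of 1.95. Of all tested probe sets 25.7% were called higher against elo-5 C17ISO and 23.2% against N2. The fits with no filter called 17 markers higher and 0 lower in each comparison, beside 18.6% and 16.7% of all probe sets called higher. The CCCH zinc finger genes mex-6, oma-2 and mex-5 and the eggshell gene cpg-2 differed most between the supplements, by 13.6, 12.3, 9.90 and 10.3-fold. The sum of the 21 intensities was 16421 and 22669 in elo-5 C13ISO, 9445 and 7901 in elo-5 C17ISO, and 10087 and 8891 in N2, so the marker sum and the 9 genes were highest in the same array. The dimmest of the 21 was chs-1, with a mean of 43.6 over the 6 arrays. The part of oocyte or embryo RNA in the differences of the 9 genes was not tested.

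Markers of other tissues gave other counts. Of 22 sperm markers on the array 10 passed the filter, and between the supplements 0 were called higher and 3 lower, the major sperm protein genes msp-31, msp-19 and msp-65, by factors of 1.61 to 1.73. Against N2 these 3 were not called, and 0 were called higher and 1 lower, msp-55 (-0.66, adjusted p = 0.0254). The sum of the sperm markers was 774 to 811 in elo-5 C13ISO, 965 to 1034 in elo-5 C17ISO and 895 to 960 in N2. The vitellogenins, yolk proteins of the adult intestine, summed to 204 to 217, 179 to 208 and 216 to 228, and neither of the 2 that passed the filter was called, while vit-5 was near 0 with a mean of 1.22 over the 6 arrays. In the fit with no filter vit-1 was called higher in the deficient larvae, by 0.83 (adjusted p = 0.00952) between the supplements and by 0.72 (adjusted p = 0.0182) against N2, with intensities of 34 ± 9.36 against 11.9 ± 1.76 and 14 ± 0.587 (SD, n = 2 each). Body wall muscle markers summed to 42026 to 46176 over all arrays, and 1 of 10 was called lower and 0 higher between the supplements. Of 9 intestine markers 4 were called higher and 3 lower, and of 10 pan-neuronal markers 2 were called higher and 0 lower. Beside these counts between the supplements, 25.7% of all tested probe sets were called higher and 18.8% lower. Against N2 the counts were 1 higher and 2 lower for muscle, 2 and 3 for intestine, and 2 and 0 for the pan-neuronal markers. The shares of all tested probe sets there were 23.2% higher and 20.4% lower.

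Cells of the somatic gonad surround the germ cells of the larva, and 6 of their 11 markers passed the filter, the dimmest being ehn-3 with a mean of 6.51 over the 6 arrays. Between the supplements the Notch ligand gene lag-2 fell 3.56-fold, from 234 ± 18.5 to 54.7 ± 13.2 (SD, n = 2), and the sex determination gene tra-1 fell 2.10-fold, while lim-7, a gene of the gonadal sheath, rose 2.75-fold. Against N2 the 3 genes were called in the same directions, at 3.69-fold, 3.66-fold and 2.05-fold. The median differences of the list were 0.09 and 0.23. Of the markers that did not pass the filter, hnd-1 was higher in the fit with no filter by 1.33 (adjusted p = 0.00121) between the supplements and by 1.28 (adjusted p = 0.00141) against N2, and fkh-6 by 0.74 (adjusted p = 0.00877) against N2. The summed level of all 11 markers was 819 to 867 in elo-5 C13ISO, 1036 to 1102 in elo-5 C17ISO and 1286 to 1417 in N2. Without lag-2 and tra-1, a sum chosen after their values were seen, the other 9 summed to 621 to 634, 452 to 514 and 414 to 554, so the order of the groups was not the same.

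Related genes gave a background for the 9. For this list and those that follow, 25.7% of all tested probe sets were called higher between the supplements and 18.8% lower. Against N2 these shares were 23.2% and 20.4%. In the fits with no filter 18.6% of all probe sets were called higher between the supplements and 16.7% against N2. Of 20 other germ granule components on the array 18 passed the filter, and 9 were called higher and 1 lower in the deficient larvae against elo-5 C17ISO, with a median difference of 0.60. The fit with no filter called 10 higher and 1 lower. The MEG proteins and MIP-1 and MIP-2 are granule proteins, and meg-1 was 5.05-fold higher (576 ± 16.4 against 103 ± 32.1, SD, n = 2), mip-2 5.19-fold, meg-4 4.50-fold and mip-1 4.48-fold. The gene pan-1, whose leucine-rich repeat protein also acts in the soma, fell 3.31-fold, from 2808 ± 215 to 835 ± 16.9. Within the families of the 9 genes, pgl-2 was 3.11-fold higher and glh-4 1.60-fold, while glh-3 was not called at -0.24 (adjusted p = 0.366). Against N2 the list likewise had 9 higher and 1 lower, with a median of 0.55, and 8 higher and 1 lower with no filter. Between elo-5 C17ISO and N2 its single call was glh-4, at 84.6 ± 9.96 in elo-5 C17ISO and 24.9 ± 3.03 in N2 (log2 difference 1.3, adjusted p = 0.00961).

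Of 24 other germline translation regulators on the array 22 passed, and 14 were called higher and 0 lower between the supplements, with a median of 0.88. These 14 include puf-3, which passed the filter only through its elo-5 C13ISO arrays. It read 152 ± 87.9 there, 13.1 ± 6.31 in elo-5 C17ISO and 24.6 ± 0.262 in N2 (SD, n = 2 each). The fit with no filter called 14 higher and 0 lower. The largest were the Pumilio-family genes puf-5 (7.36-fold) and puf-11 (6.80-fold), cpb-3 (6.40-fold), a relative of the cytoplasmic polyadenylation factor CPEB, and gld-3 (6.15-fold), a cofactor of the poly(A) polymerase GLD-2. The Nanos gene nos-1 was 2.22-fold higher, whereas nos-3 at 0.15 (adjusted p = 0.439) and gld-2 at 0.27 (adjusted p = 0.188) were not called. Against N2 14 were called higher and 1 lower, with a median of 0.62, and the lower one was lin-41 (-0.49, adjusted p = 0.0444), which was not called in the fit with no filter. That fit called 13 higher and 0 lower.

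The mRNAs that GLD-1 and FBF are reported to bind were examined next, because both repressors were among the higher genes. Of 15 reported GLD-1 targets 14 passed the filter, and 11 were called higher and 0 lower between the supplements, with a median of 1.75. The fit with no filter called 10 higher and 0 lower. The largest were oma-2, puf-5, gna-2 (7.01-fold), which acts in eggshell formation, and oma-1 (6.57-fold). The list shares 6 genes with the oocyte markers, and of the other 9 genes, among which cye-1 was not tested, 5 were called higher. Those 5 include gna-2 and also mes-3, which was not called in the limma fit with no filter (adjusted p = 0.0594). The part of oocyte RNA in them was not tested. Of 14 reported FBF targets 13 passed and 10 were called higher and 0 lower, with a median of 1.05. These 10 include fbf-2, which passed only through its elo-5 C13ISO arrays, and 11 were called higher and 0 lower with no filter. That list holds 3 of the 9 genes themselves, gld-1, fbf-1 and fbf-2, and of the 11 others 8 were called higher, among them the meiotic chromosome axis and synapsis genes him-3 (3.78-fold) and syp-2 (3.87-fold). Against N2 the counts were 10 higher of the GLD-1 targets and 8 of the FBF targets, with 0 lower in both and medians of 1.22 and 1.03. The fit with no filter gave 10 and 9 higher, again with 0 lower.

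Genes of germline stem cells and germ cell fate gave 7 higher and 1 lower of 11 that passed, with a median of 0.54 between the supplements. The fit with no filter also called 7 higher and 1 lower. The Notch receptor gene glp-1 was 3.37-fold higher (419 ± 113 against 116 ± 49.3, SD, n = 2), its nuclear effector lag-1 2.40-fold, the germline transcription repressor pie-1 3.98-fold and xnd-1 3.21-fold, and the lower one was the ligand gene lag-2. Against N2 the counts were 5 higher and 1 lower, with a median of 0.37, and 6 higher and 1 lower with no filter.

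**Figure D4:**
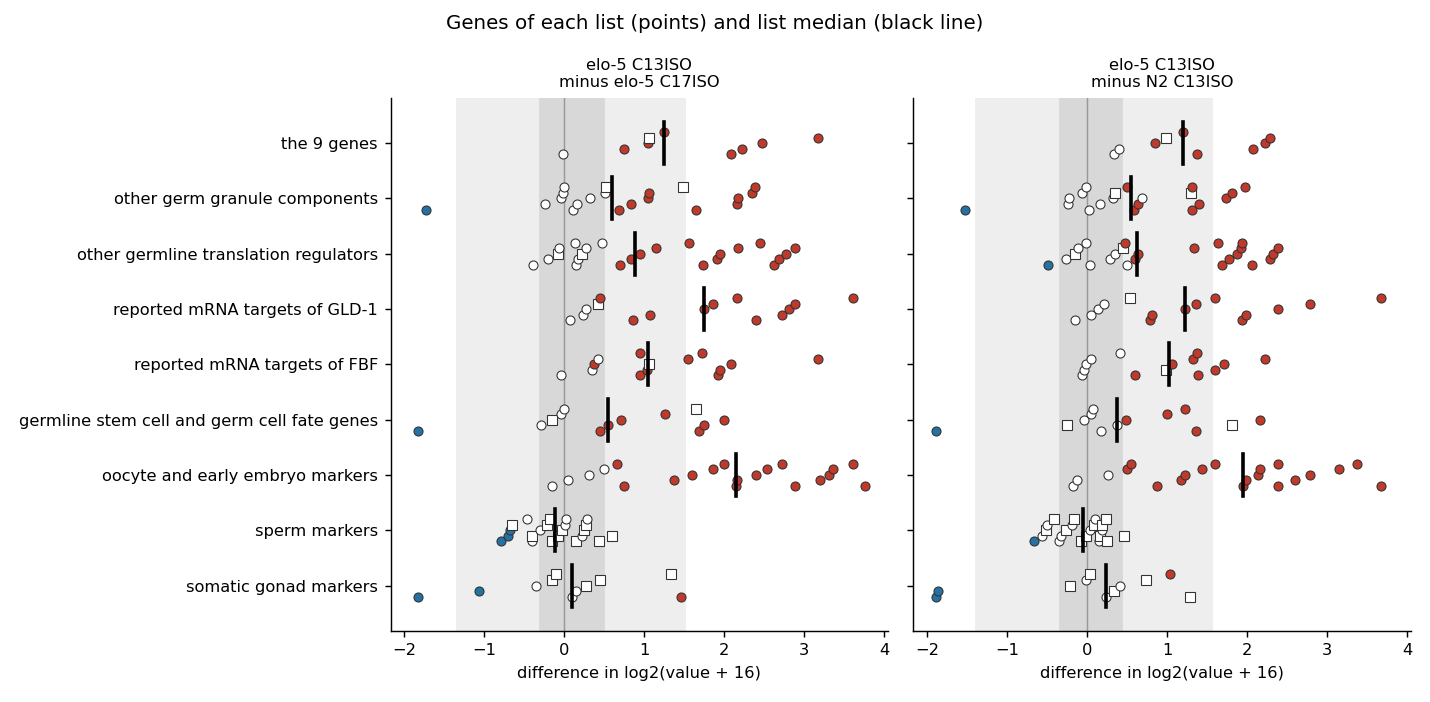
Log2 difference of each gene of the germline lists and marker lists in the comparisons of elo-5 C13ISO, with red for called higher, blue for called lower, open circles for not called and open squares for genes that did not pass the filter; the black line is the list median and the grey bands hold the middle 50% (dark) and the 5th to 95th percentile (light) of all tested probe sets. The oocyte and embryo markers have the highest medians, 2.14 and 1.95, and the sperm markers lie near 0.

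The probe sets with patterns most like each of the 8 genes that passed the filter were sought by the distance between log2 values over the 6 arrays, each centred on its own mean, among 14930 candidates. Nearest to deps-1 were szy-4 and ani-2, at distances of 0.24 and 0.30. Those nearest to nos-2 were sun-1 and F18A1.7 (0.23 and 0.28), to gld-1 clec-88 and C35E7.5 (0.33 each), and to fbf-2 C42C1.8 and F45F2.11 (0.10 and 0.19). For the genes with smaller differences, glh-1 lay nearest to nobh-1 and gldi-1 (0.14 and 0.15), glh-2 to ccch-5 and F35H10.5 (0.19 each), and pgl-1 to 2L52.1 and arid-1 (0.14 each). The nearest to pgl-3 were str-155 and F19D8.2 (0.11 and 0.17), whose differences between the supplements were -0.02 and 0.03. These distances rest on 6 arrays that share their groups and describe likeness only.

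**Figure D5:**
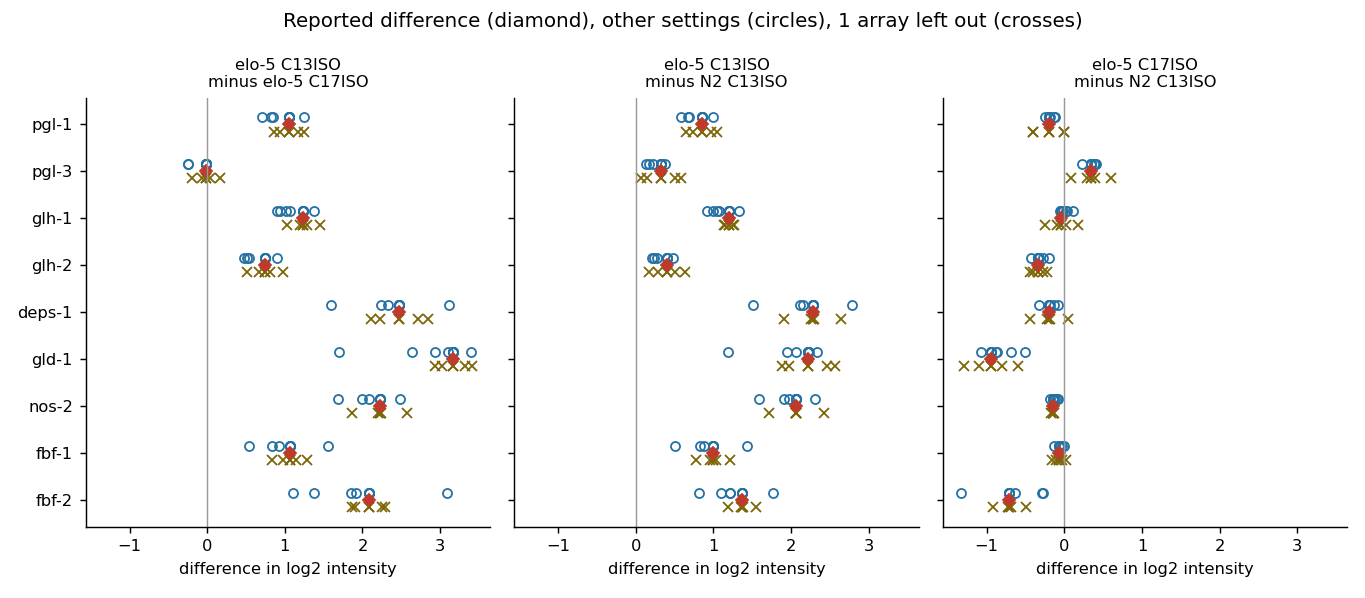
Log2 difference of each gene in the 3 comparisons under the settings reported (diamonds), other settings (circles) and with 1 array left out (crosses). Between the supplements the values run from 1.70 to 3.41 for gld-1 and from 1.59 to 3.11 for deps-1, all above 0, whereas those of pgl-3 fall on both sides of 0.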

How the data were processed

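RNA of whole L1 larvae was measured on 6 arrays, 2 per group. The authors summarised each probe set as a model-based intensity with dChip, per the labels, and the values they deposited are linear. No source used here gives the dChip version or how arrays were scaled to each other. Genes were named through the platform annotation (20766 probe sets with 1 gene, 887 with several and 895 with none), with a WBcel235 gene table used for names and neighbouring genes only. Neither the sequences of the probes nor those of the genes were analysed here.

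Intensities were not rescaled and were tested as log2(value + 16). The limma fit used lmFit and trended eBayes on the 6 arrays together over 15783 probe sets, with two-sided p-values adjusted by the Benjamini-Hochberg method over all of them and a threshold of 0.05. The limma version was 3.58.1 under R 4.3.3, and figures were drawn with Python 3.11.15 and matplotlib 3.10.9. On data simulated for the comparison of the 2 supplements, the fit recovered 92% of probe sets changed by 1 on the log2 scale, 98% of those changed by 1.5 and 100% of those changed by 2 or 3, and 7.14% of its calls were false. Each size had 50 changed probe sets among 15783, and the noise was independent between probe sets. That noise had the moderated spread from the fit itself. Changes were added on the log2 scale, so the shrinking of differences of dim probe sets by the added 16 was not simulated. In the data 44.5% of tested probe sets were called between the supplements. Recovery and false calls at that extent of change, or with noise shared by many genes, were not tested. The number of arrays limits the precision, and with 2 against 2 an exact permutation test cannot go below p = 0.333.

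The 9 genes and all gene lists were chosen with earlier results of these data known. List genes, too, were represented by the brightest probe set. The text names all 9 genes, up to 4 called genes per list and direction with the largest difference between the supplements, the 2 most alike patterns for each of the 8 genes that passed the filter, and elo-5. Other genes (pgl-2, glh-3, glh-4, nos-1, nos-3, puf-3, gld-2, lin-41, cye-1, mes-3, hnd-1, fkh-6, vit-1, msp-55 and the dimmest markers) were named after their values were seen. Lists are described by counts and medians, without a list test. Alternatives were other added constants, filters, scalings, eBayes options, all probe sets of a gene averaged, only the arrays compared, a replicate block and each array left out.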

Additional observations from a re-analysis of the deposited data

How the results depend on the processing

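The counts of genes called (7 between the supplements, 6 between elo-5 C13ISO and N2, and 0 between elo-5 C17ISO and N2) moved by over 1.5 times only with the filter at the 50th percentile, where 2 and 2 were called because only gld-1 and glh-1 passed it. With 1 array left out they were 6 to 7, 5 to 7 and 0. With the replicate block they were 7, 6 and 0, and the correlations of same-numbered deviations over all tested probe sets were 0, 0.05 and 0.08. Whether same-numbered samples were prepared or run together was not tested. Of gld-1, deps-1, nos-2, fbf-2 and glh-1, no call was lost wherever the gene passed the filter. Small differences that were not called changed sign: glh-1 between elo-5 C17ISO and N2 was 0.02 under quantile normalization, 0.03 with aligned medians, 0.11 with both probe sets averaged, and -0.25 to 0.17 with 1 array left out. In that comparison, with 1 array left out, deps-1 was -0.44 to 0.05 and fbf-1 -0.16 to 0.02, and pgl-3 between the supplements was -0.20 to 0.17. The cause was not tested. Between elo-5 C13ISO and N2, 53.2% of all calls were higher, against 38.4% with aligned medians, which moved the median of all tested probe sets to -0.14; between elo-5 C17ISO and N2 the shares were 54.5% and 69.6%. Calls over all probe sets between elo-5 C17ISO and N2 were 222, with 103 with no filter, 84 without the eBayes trend, 534 in a fit of only those arrays, 26 and 38 without replicate 1 or 2 of elo-5 C17ISO, 48 and 29 without replicate 1 or 2 of N2, and 504 without either elo-5 C13ISO array. Between elo-5 C13ISO and N2 they were 6875, and 4582 without replicate 2 of N2. For the lists of related genes, 170 counts per comparison were made under other settings. Of these, 6 moved by over 1.5 times between the supplements, 15 between elo-5 C13ISO and N2 and 13 between elo-5 C17ISO and N2. The counts of the marker lists were not followed in this way.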

Other observations

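The protein-coding genes next to each of the 9 genes on the chromosome, a set chosen after values were seen, were read as a description of the regions. Of 18 such places 14 were occupied by a gene on the array and 9 of these passed the filter. Between the supplements 5 were called higher and 0 lower, with a median log2 difference of 0.46, where 25.7% of all tested probe sets were called higher and 18.8% lower. Between elo-5 C13ISO and N2 5 were called higher and 1 lower, with a median of 0.52, where 23.2% of all were called higher and 20.4% lower. With 9 genes chosen in this way, the counts describe these places only. The neighbour of pgl-1 is him-3, a gene of the meiotic chromosome axis, which was higher by 1.92 (adjusted p = 0.000226), and the neighbour of pgl-3 is the linker histone gene hil-4, higher by 1.62 (adjusted p = 0.000293) although pgl-3 itself was not called. Beside deps-1, Y65B4BL.4 was higher by 1.66 (adjusted p = 0.000216), while Y65B4BL.7 on its other side read -0.52 (adjusted p = 0.0594). Y65B4BL.7 was the neighbour called lower against N2 (-0.56, adjusted p = 0.0452). Next to nos-2, the lysyl-tRNA synthetase gene kars-1 read -0.03 (adjusted p = 0.908), and next to glh-1, sacy-1 read 0.16 (adjusted p = 0.455).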
